A study of Mus musculus with 18 samples.

Results

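The transcription regulators examined here are 10 genes that govern the formation of fat cells: Pparg, Cebpa, Cebpb, Cebpd, Cebpg, Ebf1, Ebf2, Zfp423, Nfia and Rxra. They were taken by symbol from a table of 54347 genes, and all 10 were measured in each of the 18 libraries. The cells were marrow-derived mesenchymal stem cells (MSCs) from male C57BL/6J mice, and every group held 3 libraries. In the first experiment, untreated control MSCs were compared with MSCs given CK666, a small molecule that inhibits the actin-branching complex Arp2/3, and with MSCs given cytochalasin D (CytoD), an inhibitor of actin polymerization. In the second experiment, MSCs transfected with a control siRNA (siControl, a mock transfection in the labels) were compared with MSCs given an siRNA against Arp4 (siArp4), an actin-related protein encoded by Actl6a, and with MSCs given that siRNA together with CK666 (siArp4+CK666). No group received a control siRNA with CK666. Library totals ran from 18075610 to 24733212 estimated counts. Nothing in the labels says whether libraries of a group came from separate animals or cultures. The paper calls them distinct preparations and reports a primary MSC line, made in its laboratory, for its studies. The p-values therefore measure the spread between these libraries only.

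Adipogenesis is ordered as a relay of transcription factors. The early C/EBP proteins, C/EBPbeta and C/EBPdelta, are induced first and activate the genes of C/EBPalpha and PPARgamma, which then maintain each other and switch on the genes of lipid storage. PPARgamma binds DNA as a heterodimer with the retinoid X receptor RXRalpha, while ZFP423 and the early B-cell factors EBF1 and EBF2 mark stromal cells committed to the fat lineage. Marrow MSCs can become either adipocytes or osteoblasts, which is why these factors are followed in them.

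Promoter windows were available for 8 of the 10 genes, from RefSeq on GRCm38.p6. The 250 bases upstream of an annotated start are shown for Cebpb and Cebpg, which rose together with CK666, for Cebpa, which rose with CytoD, and for Pparg, the regulator that the C/EBP proteins act on. Each is printed 5′ to 3′ on the gene's own strand, and capitals mark matches on either strand to the C/EBP motif TTGCNNAA, the cyclic AMP response element core TGACG, the CCAAT box and the TATA box TATAAA.
Cebpb, chr2:167688665-167688914, plus strand: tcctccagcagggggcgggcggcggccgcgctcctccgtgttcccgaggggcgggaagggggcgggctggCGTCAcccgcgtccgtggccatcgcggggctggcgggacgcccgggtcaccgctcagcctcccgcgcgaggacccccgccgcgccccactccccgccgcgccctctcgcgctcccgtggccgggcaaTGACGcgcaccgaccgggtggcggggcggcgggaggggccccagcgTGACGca
Cebpg, chr7:35056567-35056816, minus strand: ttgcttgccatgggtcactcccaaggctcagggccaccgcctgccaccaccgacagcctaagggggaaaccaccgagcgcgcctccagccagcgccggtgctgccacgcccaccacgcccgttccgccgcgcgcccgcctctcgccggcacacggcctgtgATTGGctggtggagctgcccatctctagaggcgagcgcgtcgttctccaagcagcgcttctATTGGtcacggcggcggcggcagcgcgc
Cebpa, chr7:35119043-35119292, plus strand: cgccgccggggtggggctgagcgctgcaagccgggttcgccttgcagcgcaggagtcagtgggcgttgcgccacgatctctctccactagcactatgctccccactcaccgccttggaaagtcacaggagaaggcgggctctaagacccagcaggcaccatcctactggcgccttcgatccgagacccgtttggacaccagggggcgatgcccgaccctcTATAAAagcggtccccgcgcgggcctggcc
Pparg, RefSeq window 3, chr6:115421816-115422065, plus strand: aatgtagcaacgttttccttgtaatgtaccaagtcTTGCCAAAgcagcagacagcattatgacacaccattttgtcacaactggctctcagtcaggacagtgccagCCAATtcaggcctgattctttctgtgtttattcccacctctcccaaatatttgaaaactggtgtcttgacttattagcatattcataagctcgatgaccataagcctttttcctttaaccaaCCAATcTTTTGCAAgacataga
The Cebpb window held 3 matches to the response element core, which bZIP proteins of the ATF family are known to bind, and 17.8% of 32851 such windows in the genome held at least 1. The Cebpg window held 2 CCAAT boxes, present in 33.8% of windows, and the Cebpa window held 1 TATA box, present in 12.4%. Of 3 Pparg windows, the one printed held 2 C/EBP motifs, present in 9.56% of windows, the nearer of them ending 9 bases before the start, and 2 CCAAT boxes. The other Pparg windows held 0 C/EBP motifs, and window 2 held 1 CCAAT box and 1 TATA box. No marked matches overlapped. A match describes letters and not a bound site.

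Before the comparisons, 3 features of the libraries bear on these genes. First, Actl6a itself stood at 720, 1127 and 841 normalized counts in the siControl libraries, at 48.8, 57.2 and 19.0 in siArp4 and at 9.5, 22.9 and 17.9 in siArp4+CK666, with no overlap. Second, stromal markers such as Pdgfra, Col1a1 and Cxcl12 were abundant, although Thy1 averaged under 1 count and Nt5e under 10. Lepr was also low, at group means of 7.0 to 17.3 counts, and Eng stood at 9.3 to 53.7. Markers of B cells, for which Ebf1 is also a defining factor, averaged under 1 count for 5 of 5 genes. The 8 macrophage markers together summed to 62.8 to 306 counts per library, with Ptprc, Adgre1, Itgam, C1qa and Fcgr1 each averaging under 1 count, and this sum was 259 to 266 in CytoD against 104 to 166 in control. The highest sum was that of siArp4+CK666 3, with Lyz2 at 189 and Adgre1 at 12.6 counts. In the other libraries of that group Lyz2 stood at 19.0 and 19.1 and Adgre1 at 0. The part of these markers in the CytoD and siArp4+CK666 results was not tested. Last, libraries of the same group differed in how long and short transcripts were represented. Among 10317 genes, the gap between the shortest 10% (up to 1435 bases) and the longest 10% (from 6920 bases) departed from the group mean by -1.20 on the log2 scale in siControl 1 and by 1.05 in siControl 2. The same departure was 0.81 in CK666 1 and -0.59 in CK666 2, -0.59 and 0.60 in siArp4+CK666 1 and 3, and at most 0.30 in size in the control, CytoD and siArp4 libraries. Cebpb, whose transcript measures 1504 bases with 67.2% G and C, moved with it, departing by -1.46 in siControl 1, 1.52 in siControl 2 and 0.57 in CK666 1. Cebpa moved the same way and Ebf1 the opposite way. Values with this trend in length and G+C content removed, an adjustment chosen after seeing the data, are therefore given where they change a call.

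**Figure D1:**
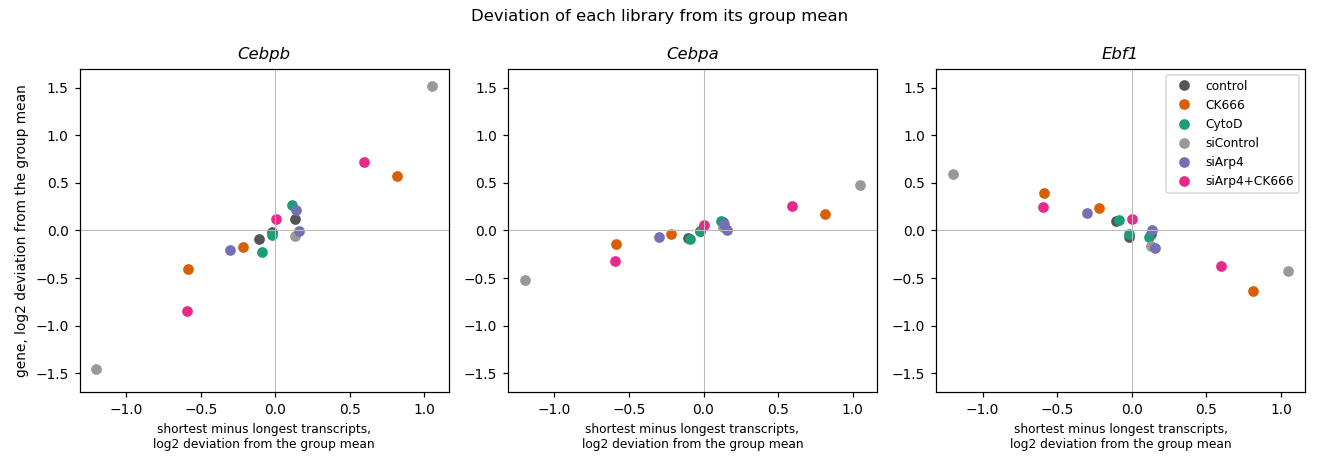
Departure of each library from its group mean for Cebpb, Cebpa and Ebf1 (y axis, log2) against the departure of the shortest minus the longest transcripts (x axis, log2); each point is 1 of 18 libraries, coloured by group. siControl 1 and 2 lie at the far left and far right, where Cebpb departs by -1.46 and 1.52, while Ebf1 slopes the other way.

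CK666 raised Cebpb and Cebpg more than 2-fold and Pparg and Rxra by less, and CytoD raised Cebpa more than 2-fold and Zfp423, Nfia and Rxra by less. A gene is described as having risen or fallen where the adjusted p of the DESeq2 Wald test (Benjamini-Hochberg over all genes) was under 0.01, and as called where it also changed more than 2-fold. CK666 against control called 2 of the 10 regulators, both higher, where 11% of all genes tested were called, 4.89% higher and 6.06% lower. At the adjusted p alone 4 rose and none fell, where 30% of all genes passed, 15.3% higher and 14.7% lower. In 4 of 10, all CK666 libraries lay above all control libraries, and in 0 below, where 50.6% of genes with a mean of at least 10 counts were apart, 26% higher and 24.6% lower. CytoD against control called 1 of 10, higher, against 9.12% of all genes, 4.8% higher and 4.32% lower. Again 4 rose and none fell, against 29.6% of all genes, 13.6% higher and 16% lower, and the libraries lay apart for 6 genes higher and 1 lower, against 61% of all genes, 29.6% higher and 31.4% lower. The median log2 fold change of the 10 regulators was 0.10 with CK666 and 0.42 with CytoD, where the median over all genes was 0.01 in both. In bulk RNA, a change in the number of cells of a type and a change in RNA per cell cannot be told apart.

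**Figure D2:**
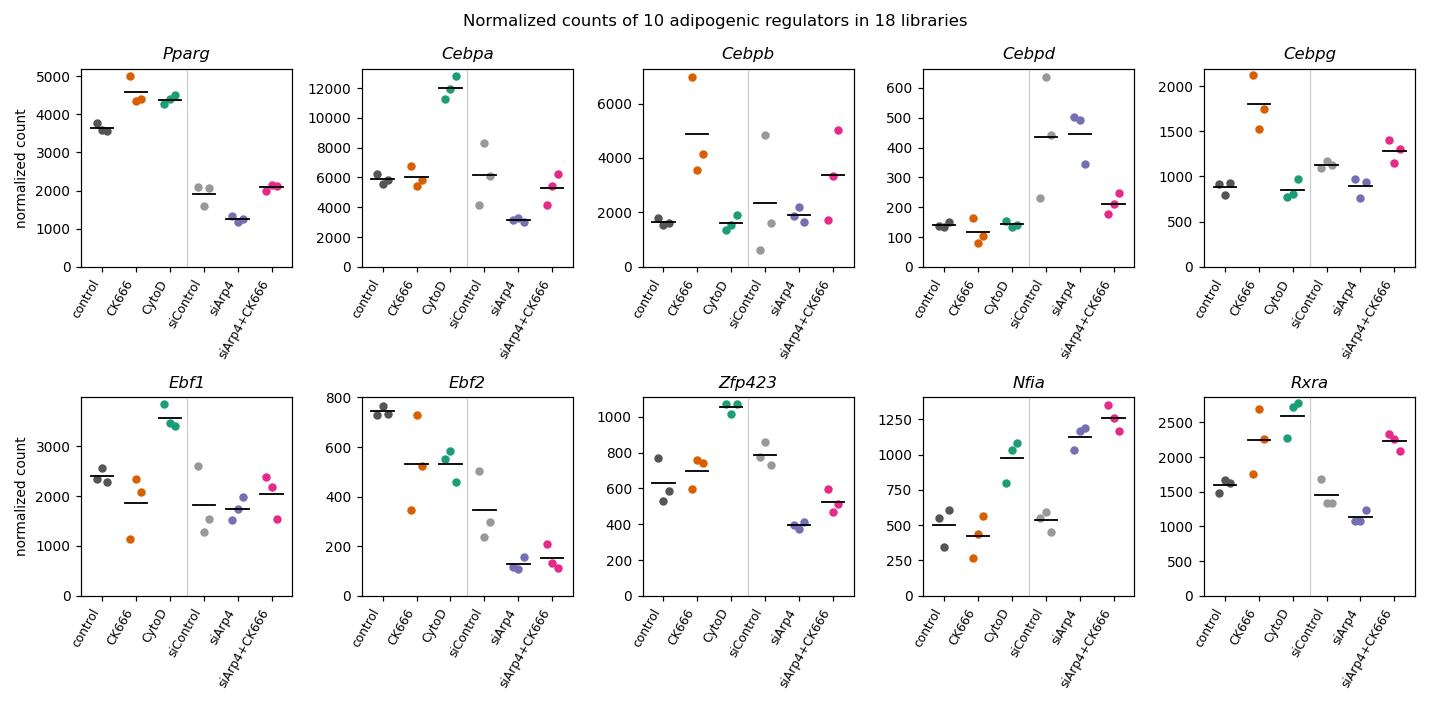
Normalized counts (y axis, linear scale, scaled over all 18 libraries) of the 10 regulators in the 6 groups. Each point is a library and each bar a group mean, n = 3. Cebpa in CytoD (11233 to 12816 counts on this scale) and Nfia in both siArp4 groups lie above their controls, while the siControl points of Cebpb run from 615 to 4849.

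Cebpb encodes C/EBPbeta, a bZIP factor that acts early in adipogenesis. Its single-exon gene lies at chr2:167688915-167690418 on the plus strand, and 20.7% of its exon bases are shared with Tmem189 on the opposite strand. The libraries did not keep strand, so its counts carry that uncertainty, as do those of Cebpd, which shares 15% of its exon bases with Spidr. Normalized counts of Cebpb were 1833, 1577 and 1658 in control and 7252, 3667 and 4305 in CK666. Every CK666 library was thus above every control library, although CK666 1 stood far above the others. The gene rose 3.00-fold (log2 1.59, SE 0.23, adjusted p = 6.19e-11), and by a log2 value of 1.31 with the length and G+C trend removed. In CytoD the counts were 1386, 1566 and 1954, which overlapped control (log2 fold change -0.05, adjusted p = 0.899).

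Cebpg encodes C/EBPgamma, a short family member that lacks a strong activation domain and dimerizes with other bZIP proteins. It lies at chr7:35046422-35056573 on the minus strand, next to Cebpa. Its counts were 948, 817 and 953 in control, 2213, 1581 and 1812 in CK666 and 790, 828 and 996 in CytoD. CK666 stood apart from both other groups, and control and CytoD overlapped (log2 -0.06, adjusted p = 0.818). The rise with CK666 was 2.06-fold (log2 1.04, SE 0.16, adjusted p = 3.01e-10). It sat at the edge of the 2-fold limit and measured a log2 value of 0.97 without control 2 and 0.91 without CK666 1. Over all 18 libraries on a common scale, the CK666 mean of 1800 counts was the highest of the 6 groups and did not overlap the next.

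Cebpd encodes C/EBPdelta, which is induced alongside C/EBPbeta early in adipogenesis (chr16:15887286-15891031, plus strand). It was low in the first experiment, at 140, 137 and 154 counts in control, 170, 84.6 and 107 in CK666 and 158, 137 and 143 in CytoD. These ranges overlapped, and neither drug moved it past the test (adjusted p = 0.472 and 0.956).

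Cebpa encodes C/EBPalpha, the factor that sustains Pparg in maturing adipocytes, from a single exon at chr7:35119293-35121928 on the plus strand. In CytoD its counts were 11499, 12226 and 13132, against 6412, 5695 and 5969 in control. The groups were far apart, and Cebpa rose 2.04-fold (log2 1.03, SE 0.11, adjusted p = 2.94e-18). The size was close to the 2-fold limit, at a log2 value of 0.99 without control 2, 0.98 without CytoD 3 and 0.93 with the length and G+C trend removed, where the adjusted p was 7.2e-56. CK666 gave 7024, 5604 and 6044 counts, which overlapped control (log2 fold change 0.05, 95% interval -0.17 to 0.27, adjusted p = 0.782).

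Cebpa stood lower relative to Cebpb in every CK666 library, and higher in every CytoD library, than in any control library. CPM (counts scaled to library size) per kilobase of exon, which allow levels of different genes to be set side by side, averaged 109 for Cebpa and 53.5 for Cebpb in control, 115 and 164 in CK666, and 222 and 51.9 in CytoD. The ratio of Cebpa to Cebpb on that scale was 1.996, 2.06 and 2.05 in the control libraries, 0.553, 0.872 and 0.801 with CK666 and 4.73, 4.45 and 3.84 with CytoD. No library overlapped another group. An exact two-sided permutation test over 3 libraries against 3 gave p = 0.1 for each pair, which is the smallest value that design can reach.

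**Figure D3:**
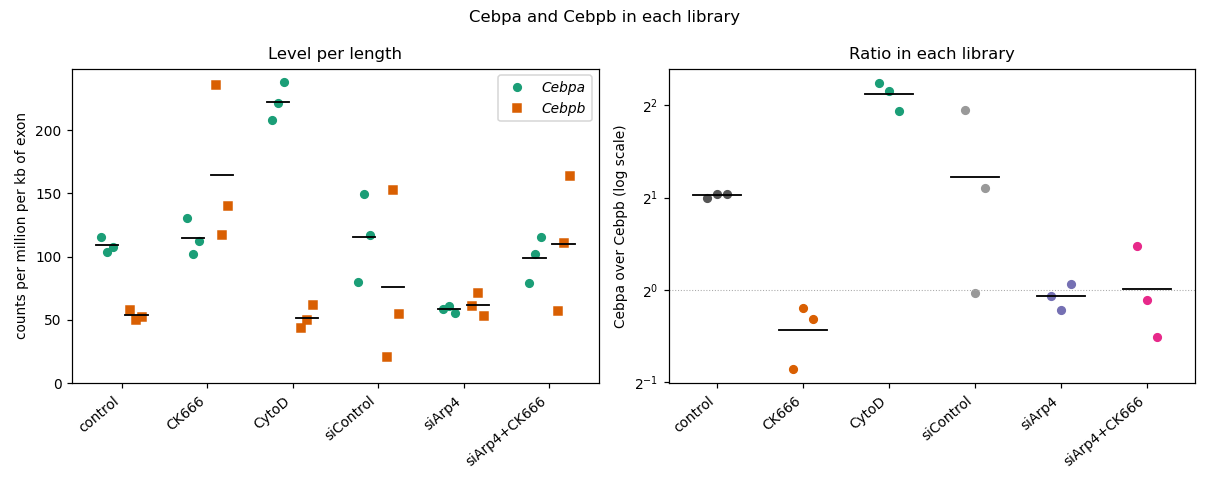
Left, CPM per kilobase of exon of Cebpa (circles) and Cebpb (squares) in each library; right, their ratio on a log scale; bars are group means, n = 3. The ratio lies near 2.04 in control, below 1 in all 3 CK666 libraries and between 3.84 and 4.73 in CytoD, and spreads from 0.976 to 3.86 in siControl.

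Pparg encodes PPARgamma, the nuclear receptor at the centre of adipocyte differentiation (chr6:115360951-115490399, plus strand). Its counts were 3885, 3692 and 3656 in control, 5212, 4488 and 4556 in CK666 and 4366, 4506 and 4610 in CytoD. Both drug groups lay above control in all libraries, by modest amounts. With CK666 it rose 1.27-fold (log2 0.34, SE 0.09, adjusted p = 0.00071), but the adjusted p was 0.0156 without control 2 and 0.0181 without control 3. With CytoD the difference was 0.26 (adjusted p = 0.0123) and did not pass, though it did with the trend removed (0.27, adjusted p = 6.54e-06), without CK666 1 (adjusted p = 1.08e-05) and without CK666 2 (adjusted p = 0.00919).

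Rxra encodes RXRalpha, the partner of PPARgamma (chr2:27676440-27762957, plus strand). It stood at 1527, 1708 and 1674 counts in control, 1832, 2793 and 2341 in CK666 and 2329, 2791 and 2842 in CytoD. Every treated library exceeded every control library. The rise was 0.70 with CytoD (1.62-fold, adjusted p = 7.58e-05) and 0.50 with CK666 (1.42-fold, adjusted p = 0.00578). The CK666 change missed the threshold with edgeR (adjusted p = 0.0178) and when any 1 of the control libraries, CK666 2, CK666 3, CytoD 2 or CytoD 3 was left out.

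Among the factors that mark commitment, Zfp423, a zinc-finger protein of preadipocytes (chr8:87661810-87959595, minus strand), stood at 795, 545 and 601 counts in control and at 1099, 1044 and 1100 in CytoD. These ranges did not meet, and Zfp423 rose 1.67-fold with CytoD (log2 0.74, adjusted p = 3.58e-05). CK666 gave 622, 787 and 767 counts, within the control range (log2 0.16, adjusted p = 0.46). Nfia, a nuclear factor I protein known to prime brown fat genes (chr4:97772734-98118874, plus strand), stood at 566, 357 and 625 in control, 820.5, 1060 and 1108 in CytoD and 276, 456 and 582 in CK666. It rose 1.93-fold with CytoD (log2 0.95, SE 0.27, adjusted p = 0.00202). With CK666 Nfia gave -0.24 (adjusted p = 0.532) and Ebf1, described next, -0.35 (adjusted p = 0.186). The CytoD change of Nfia depended on single libraries: the adjusted p was 0.0255 without control 2, 0.0194 without CytoD 2, 0.0246 without CytoD 3 and 0.0216 with edgeR, while the change passed 2-fold without control 1, control 3 or CytoD 1 and with the trend removed (1.09).

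Ebf1 (chr11:44617317-45008091, plus strand), which activates Pparg and Cebpa in preadipocytes, stood at 2412, 2632 and 2348 counts in control and 3939, 3559 and 3500 in CytoD. The groups were apart, but the log2 difference of 0.57 had an adjusted p of 0.0216. CK666, at 1195, 2421 and 2169, was the most spread of the groups, and its libraries share in the estimate of the error. Without CK666 1 the adjusted p was 2.89e-12, without CK666 2 it was 0.00464 and with the trend removed it was 8.19e-07. Ebf2, a marker of brown and beige precursors (chr14:67233292-67430918, plus strand), stood at 752, 787 and 753 in control, 359, 753 and 543 in CK666 and 565, 599 and 472 in CytoD. The Ebf2 differences of -0.47 and -0.49 did not pass (adjusted p = 0.0908 and 0.0799). Without CK666 2 the CK666 difference was -0.75 (adjusted p = 0.000358), and without CK666 1 the CytoD difference passed (-0.48, adjusted p = 0.00177), as it did in a fit of only those groups (adjusted p = 0.00019).

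Set directly against each other, CK666 and CytoD called 3 of the 10 regulators, 2 higher and 1 lower, where 11.8% of all genes were called, 5.08% higher and 6.74% lower. At the adjusted p alone 2 were higher and 4 lower, where 31.8% of all genes passed, 16.9% higher and 14.9% lower. The libraries of those 6 genes were apart, and for all genes they were apart in 53.3%, 27.1% higher and 26.2% lower. These values share libraries with the comparisons above. Cebpb was 3.10-fold higher with CK666 (log2 1.63, SE 0.23, adjusted p = 1.41e-11) and Cebpg was higher by 1.10 (adjusted p = 2.58e-11). Nfia was lower by -1.19 on the log2 scale (adjusted p = 7.19e-05), Cebpa by -0.98 (adjusted p = 8.17e-17), Ebf1 by -0.93 (adjusted p = 7.53e-05) and Zfp423 by -0.58 (adjusted p = 0.00157). With the length and G+C trend removed, Cebpa also passed 2-fold (adjusted p = 2.54e-65), as it did without CK666 1 (-1.07) or CytoD 1 (-1.03). Zfp423 missed the threshold without CytoD 1 (adjusted p = 0.0144) or CytoD 3 (0.0148) and with edgeR (0.0113). Without CK666 1, Cebpg measured 0.96 and Nfia -0.94, and Ebf1 was called without CK666 2 (-1.12) or CK666 3 (-1.01). Pparg differed by 0.08, with a 95% interval from -0.10 to 0.26 (adjusted p = 0.516), and Rxra by -0.19 (interval -0.51 to 0.12, adjusted p = 0.354). Cebpd (-0.28, adjusted p = 0.42) and Ebf2 (0.02, adjusted p = 0.968) did not pass.

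**Figure D4:**
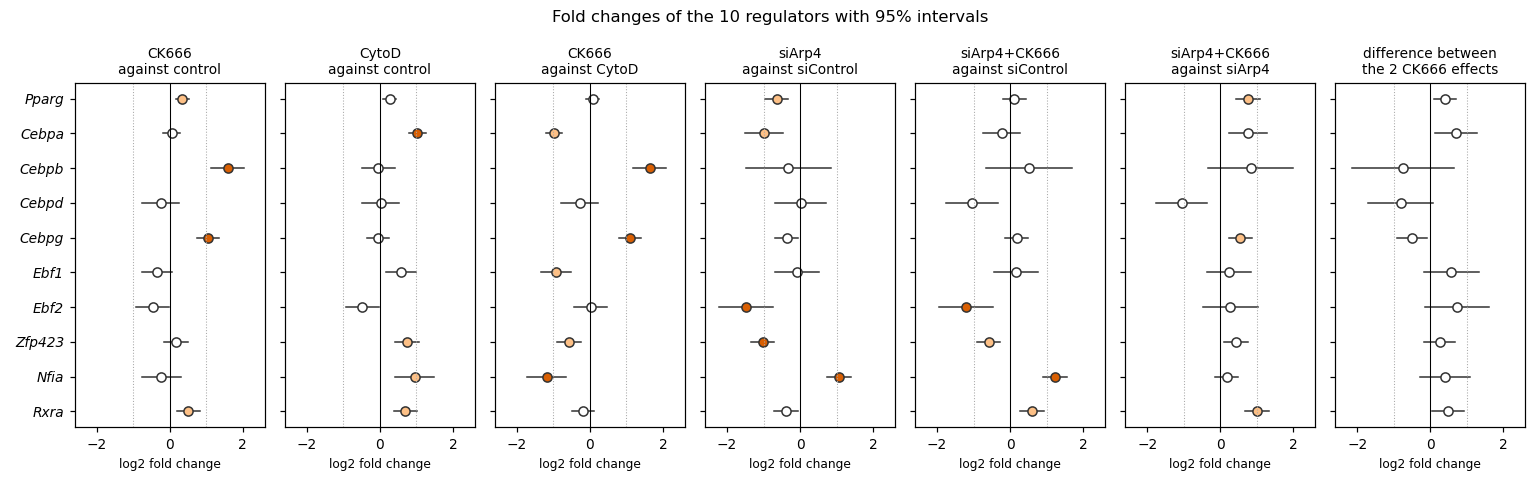
Log2 fold change (x axis) of the 10 regulators in each of 6 comparisons, with 95% intervals from the DESeq2 Wald test. A further panel shows the difference between the CK666 effects with and without Arp4 knockdown. Dark orange points changed more than 2-fold at an adjusted p under 0.01. Pale orange points passed that adjusted p without a 2-fold change, and white points did not pass. Cebpb and Cebpg are dark orange with CK666 (1.59 and 1.04), Cebpa with CytoD (1.03), and Ebf2, Zfp423 and Nfia with siArp4 (-1.48, -1.03 and 1.06).

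Knockdown of Arp4 lowered Pparg, Cebpa, Ebf2 and Zfp423 and raised Nfia. In siArp4 against siControl, 3 of the 10 regulators were called, 1 higher and 2 lower, where 16.2% of all genes were called, 6.69% higher and 9.49% lower. At the adjusted p alone 1 rose and 4 fell, where 25.1% of all genes passed, 11.9% higher and 13.1% lower. The libraries lay apart for 1 regulator higher and 6 lower, against 46.6% of all genes, 23.6% higher and 23% lower. The median log2 fold change over the regulators was -0.38, and over all genes -0.05. With the length and G+C trend removed, only Ebf2 was still called.

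Ebf2 stood at 505, 231 and 295 counts in siControl and at 113, 104 and 153 in siArp4. The groups did not overlap, and Ebf2 fell to 0.358 of its siControl level (log2 -1.48, SE 0.38, adjusted p = 0.000515), with a log2 value of -1.57 once the trend was removed. The adjusted p was 0.0103 without siArp4 2 and 0.0124 with edgeR. Zfp423 was the steadiest of the genes that fell, at 779, 835 and 730 in siControl and 384, 364 and 403 in siArp4 (log2 -1.03, SE 0.16, adjusted p = 5.11e-09). Its fold was at the 2-fold limit, measuring -0.98 without siControl 2, -0.99 without siArp4 2 and -0.94 with the trend removed.

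Nfia went the other way, from 553, 580 and 452 counts in siControl to 1003, 1136 and 1159 in siArp4. It rose 2.08-fold (log2 1.06, SE 0.17, adjusted p = 3.51e-09), and all siArp4 libraries were above all siControl libraries. Without siControl 3 the value was 0.95. With the trend removed it was 0.76, and the adjusted p of 0.0174 no longer passed.

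Pparg stood at 2101, 1562 and 2063 in siControl and 1308, 1144 and 1218 in siArp4. Its fall was modest (log2 -0.64, SE 0.16, adjusted p = 0.000563). The adjusted p was 0.0132 without siControl 3, 0.0199 without siArp4 2, 0.0135 without siArp4 3 and 0.0555 with the trend removed. Cebpa was evenly low in siArp4, at 3079, 3220 and 2946, but spread in siControl, at 4178, 8070 and 6118. The groups did not overlap, and Cebpa fell (log2 -0.99, SE 0.26, adjusted p = 0.000954). The fall passed 2-fold without siControl 1 (-1.21) or siArp4 2 (-1.02), and the adjusted p was 0.011 without siArp4 1, 0.0138 without siArp4 3 and 0.0123 with edgeR. Rxra and Cebpg were lower on average in siArp4 but did not pass, with log2 differences of -0.39 (adjusted p = 0.058) and -0.37 (adjusted p = 0.0638).

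The early C/EBP genes could not be ranked between siControl and siArp4. Cebpb ran over 617, 4717 and 1620 counts in siControl, a range that enclosed the siArp4 values of 1833, 2142 and 1602. The log2 difference of -0.32 had a 95% interval from -1.49 to 0.85, and it turned to 0.41 with the trend removed. Cebpd stood at 231, 620 and 441 in siControl and 489, 479 and 336 in siArp4, and Ebf1 at 2625, 1253 and 1549 against 1491, 1706 and 1933. Neither passed the test (adjusted p = 0.982 and 0.875).

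Adding CK666 to the Arp4 knockdown raised Pparg, Rxra and Cebpg above siArp4 alone. In siArp4+CK666 against siArp4, 0 of the 10 regulators were called, where 5.75% of all genes were called, 1.63% higher and 4.12% lower. At the adjusted p alone 3 rose and none fell, where 9.9% of all genes passed, 3.82% higher and 6.07% lower. The libraries lay apart for 5 regulators higher and 1 lower, against 39.1% of all genes, 18.6% higher and 20.5% lower. edgeR likewise called 0. The median log2 fold change over the regulators was 0.49, and over all genes 0.02. Pparg stood at 2011, 2122 and 2064 counts with the combination, above all siArp4 libraries, and rose 1.69-fold (log2 0.76, SE 0.16, adjusted p = 8.58e-05). With edgeR its adjusted p was 0.0133, and without siArp4 2 it was 0.0113. Rxra stood at 2350, 2227 and 2026 against 1046, 1054 and 1205 in siArp4. Its rise was 1.998-fold (log2 0.998, SE 0.17, adjusted p = 9.3e-08), just under the limit for a call, and it crossed that limit when any 1 of the siControl libraries, siArp4 3 or siArp4+CK666 3 was left out. Cebpg, at 1412, 1133 and 1265 against 945, 743 and 916, rose by 0.55 (adjusted p = 0.00767), with an adjusted p of 0.016 once replicate numbers were used as a block, 0.0403 with edgeR and 0.0597 with the trend removed. It also missed the threshold when siControl 3 or any 1 of the siArp4 or siArp4+CK666 libraries was left out. Zfp423 gave 0.44 (adjusted p = 0.053), and passed with the trend removed (0.43, adjusted p = 0.00766).

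Cebpa under the combination stood at 4199, 5361 and 6057 counts, above all siArp4 libraries. The log2 difference was 0.76 with an adjusted p of 0.0318, and 0.85 with an adjusted p of 1.68e-20 once the length and G+C trend was removed. The difference also passed without siControl 1 (adjusted p = 0.000493) or siControl 2 (adjusted p = 0.00171). Cebpb spread over 1720, 3303 and 4906 counts and overlapped both other groups. Cebpd moved the other way, to 177, 208 and 242, below all siArp4 libraries, with a log2 difference of -1.06 and an adjusted p of 0.0259. Without siControl 1 or siControl 2, Cebpd was called lower. Cebpb (0.83, adjusted p = 0.444), Ebf1 (0.24, adjusted p = 0.747), Ebf2 (0.28, adjusted p = 0.759) and Nfia (0.18, adjusted p = 0.588) did not pass, and Ebf1 stood at 2391, 2151 and 1503 counts.

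Against siControl, the combination called 2 of the 10 regulators, 1 higher and 1 lower, where 20.4% of all genes were called, 8.06% higher and 12.4% lower. At the adjusted p alone 2 rose and 2 fell, where 29.9% passed, 14% higher and 15.8% lower. The libraries lay apart for 2 regulators higher and 2 lower, against 46.5% of all genes, 23.4% higher and 23.1% lower. Nfia was the higher of these, at 1357, 1241 and 1137 counts (log2 1.24, SE 0.17, adjusted p = 1.7e-12), or 0.81 with the trend removed. Ebf2 was the lower, at 210.4, 132 and 107 counts (log2 -1.20, SE 0.38, adjusted p = 0.00515). The Ebf2 call was lost without siControl 1 (-0.81, adjusted p = 0.0376), siControl 3, siArp4 1, siArp4+CK666 2 or siArp4+CK666 3, and with edgeR (adjusted p = 0.0241). Rxra rose by 0.61 (adjusted p = 0.00112), and Zfp423 fell (log2 -0.59, adjusted p = 0.00118) with counts of 597, 463 and 498. The Rxra rise missed the threshold without siControl 3 (adjusted p = 0.0214), siArp4+CK666 1 (0.0206) or siArp4+CK666 2 (0.0184), with edgeR (0.0117) and in a fit of only those groups (0.0193). The Zfp423 fall missed it without siArp4+CK666 2 (adjusted p = 0.0295) or siArp4+CK666 3 (0.0175) and in a fit of only those groups (0.0291). Pparg differed by 0.11 with a 95% interval from -0.21 to 0.43, and Cebpa by -0.23 (-0.75 to 0.28), so neither was distinguished from siControl. Cebpg gave 0.18 (adjusted p = 0.401) and Ebf1 0.16 (adjusted p = 0.738). Cebpb gave 0.51 (adjusted p = 0.531), but was called higher without siControl 2 (1.56, adjusted p = 0.00168) and with the trend removed (1.24, adjusted p = 1.24e-05). Cebpd gave -1.04 (adjusted p = 0.0118), and was called lower without siControl 1 (-1.34, adjusted p = 4.1e-06). With the trend removed its adjusted p was 0.00901.

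The ratio of Cebpa to Cebpb was 3.86, 0.976 and 2.15 in siControl, 0.958, 0.858 and 1.05 in siArp4 and 1.39, 0.926 and 0.705 with the combination. The siControl range took in values of both other groups, and exact permutation p-values were 0.2 for each against siControl and 1 between them.

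The difference between the CK666 effect with and without Arp4 knockdown was fitted over all 18 libraries. Since no siControl cells received CK666, knockdown and transfection cannot be told apart in it. It called 0 of the 10 regulators, where 4.4% of all genes were called, 1.89% higher and 2.51% lower, and 0 passed the adjusted p alone, where 7.8% did, 3.75% higher and 4.05% lower. At an unadjusted p under 0.05 there were 4, and edgeR also called 0. The effect was more positive in siArp4 cells for Pparg (0.41, adjusted p = 0.0517), Cebpa (0.71, adjusted p = 0.0912) and Rxra (0.49, adjusted p = 0.136), and more negative for Cebpg (-0.50, adjusted p = 0.102). With the length and G+C trend removed, 1 passed: Cebpa, at 0.92 (adjusted p = 1.17e-30).

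Placed on 1 scale across both experiments, the order of the group means varied between regulators, though Cebpa shared its order with Zfp423 and Cebpb with Cebpg. Pparg was highest in CK666 and CytoD, at means of 4580 and 4388 counts that overlapped, then 3644 in control, then 2092 and 1922 in siArp4+CK666 and siControl, which overlapped, and lowest in siArp4 at 1254. Cebpa in CytoD (11996) and in siArp4 (3159) stood apart at the ends, and the 4 groups between them overlapped. Nfia had siArp4+CK666 (1259), siArp4 (1127) and CytoD (972) in an overlapping upper set, apart from siControl (533). Ebf2 was highest in control at 744 and lowest in siArp4+CK666 and siArp4 at 151 and 126, which overlapped. Neighbouring groups overlapped throughout for Cebpb. Experiment and transfection cannot be told apart where the untransfected groups are set beside the siRNA groups.

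Genes that PPARgamma is known to activate were followed alongside Pparg. Of 22 such target genes, 8 of 19 tested were called higher and 0 lower with CK666, and 9 of 18 higher and 1 lower with CytoD. Over all genes, 4.89% were called higher and 6.06% lower with CK666, and 4.8% and 4.32% with CytoD. The median log2 fold change of the list was 1.12 and 1.18, against 0.01 over all genes. Adipoq, which encodes the hormone adiponectin, rose from 89, 38 and 58 counts in control to 309, 232 and 153 with CK666 and to 598, 525 and 657 with CytoD. The CytoD level was the higher of the drugs (log2 CK666 against CytoD -1.36, adjusted p = 2.31e-05). The lipid droplet coat gene Plin1 rose by 2.64 and 2.98 and the fatty acid transporter gene Cd36 by 2.90 and 2.42.

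In siArp4 against siControl, 2 of 18 target genes were called higher and 6 lower, with a median of -0.65. Over all genes, 6.69% were called higher and 9.49% lower. Adipoq fell from 148, 132 and 231 counts to 16, 4.3 and 9, and Lpl, which encodes lipoprotein lipase, fell from a mean of 66500 ± 7604 (SD, n = 3) to 14035 ± 792. Agpat2, an enzyme of triglyceride synthesis, fell by 3.20 on the log2 scale. The genes that rose were Hilpda (2.10) and Angptl4 (1.43), both also induced by low oxygen. With the combination against siArp4, 7 of 16 were called higher and 0 lower, where 1.63% of all genes were called higher and 4.12% lower. Adipoq reached 165, 109 and 135 counts and Lpl 57213 ± 1483, while Agpat2 against siControl remained lower by -3.40. Stromal markers moved in the same comparisons. Of 10 tested, 0 were called higher and 2 lower with CK666, and 1 higher (Cxcl12, log2 1.64) and 1 lower (Cd44, -1.05) with CytoD. Over all genes these shares were 4.89% higher and 6.06% lower with CK666, and 4.8% and 4.32% with CytoD. With siArp4, 2 markers were called higher and 1 lower, and on adding CK666 to siArp4, 0 higher and 4 lower, where the shares are those given above. The collagen gene Col1a1 fell by 1.48 with CK666, rose by 1.703 in siArp4 and fell by 1.30 on adding CK666 to siArp4. The part of the stromal markers in these values was not tested. Of the osteoblast markers, 1 of 4 tested was called higher in siArp4 and 0 lower: Spp1, which encodes osteopontin, rose 2.63-fold (log2 1.39, adjusted p = 9.94e-36). The 6 markers summed to 88030 to 98465 counts in siControl and 243640 to 244870 in siArp4, with Ibsp averaging under 1 count and Sp7 under 10. Spp1 made up nearly all of these sums: scaled within the experiment, it averaged 90240 in siControl and 237300 in siArp4. Runx2 averaged 779 and 982, Dlx5 18.3 and 18.8 and Alpl 7.3 and 1.4, and none of them was called. The part of the osteoblast markers was not tested.

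**Figure D5:**
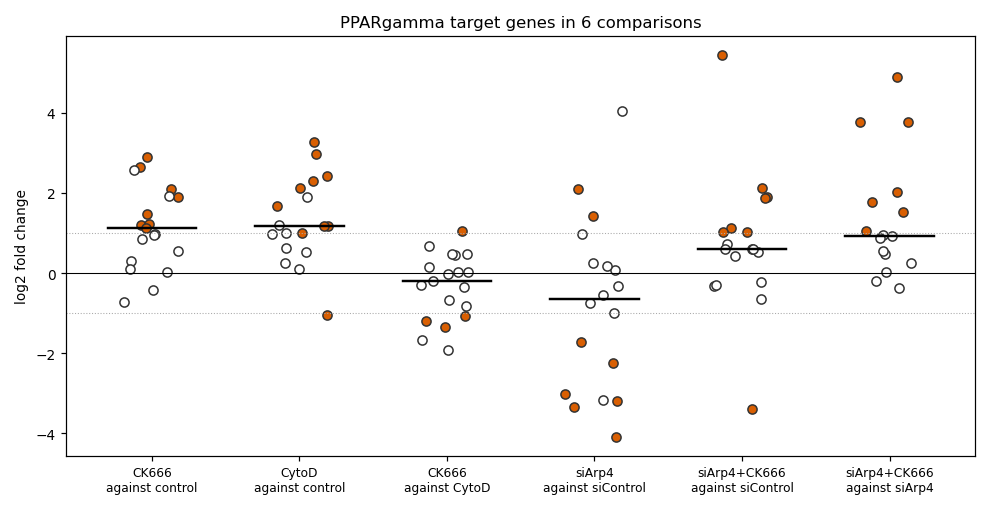
Log2 fold change (y axis) of the PPARgamma target genes in 6 comparisons; each point is a gene, filled where called, and each bar is the list median. The medians are 1.12 with CK666, 1.18 with CytoD, -0.65 with siArp4 and 0.94 on adding CK666 to siArp4.

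The bZIP proteins that can pair with C/EBP proteins stood out beside Cebpb and Cebpg. Of 4 such genes, 3 were called higher with CK666 and 2 lower with CytoD. Over all genes, 4.89% were called higher with CK666 and 4.32% lower with CytoD. Ddit3, which encodes CHOP, a stress-induced inhibitor of C/EBP proteins, rose from 578, 619 and 574 counts in control to 16132, 8798 and 10508 with CK666 (log2 4.32, SE 0.20, adjusted p = 4.6e-105). Atf3 rose by 4.25 and Atf4, the translation-stress regulator, by 1.43 with CK666, whereas Atf4 and Atf5 each fell by 1.34 with CytoD. On the knockdown background, CK666 raised Ddit3 less, from 500, 555 and 403 to 1203, 1455 and 1835 counts (log2 1.62), while Atf3 rose by 3.51.

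Other regulators of adipogenesis gave mixed directions. For the counts that follow, 4.89% of all genes were called higher and 6.06% lower with CK666. These shares were 4.8% and 4.32% with CytoD, and 6.69% and 9.49% with siArp4. Of 13 inhibitors, CK666 called Ddit3 higher and Klf2 lower (-2.07), CytoD called none of 12 tested (with 1 higher and 1 lower at the adjusted p alone), and siArp4 called Klf2 (1.72) and Gata2 (1.43) higher. Of 11 other activators, CytoD raised Nr1h3 (1.59), the oxysterol receptor LXRalpha, and Zfp467 (1.37) and lowered Klf4 (-1.01), so that 2 were called higher and 1 lower. CK666 called 1 of 10 tested higher and 2 lower: it lowered Egr2 (-1.72) and Stat5a (-1.18) and raised Klf15 (log2 3.80), which averaged under 50 counts and was named after its values were seen. In siArp4, Klf4 (1.58) and Klf9 (1.04) rose and Egr2 fell by 2.14. Of the 11 paralogues of the regulators, CK666 raised Rxrb (1.13) and lowered Nfic (-1.23), and siArp4 lowered Nfib (-1.02), a relative of Nfia that moved the other way. Of 13 coregulators, none was called with either drug or with siArp4. At the adjusted p alone 1, 1 and 0 passed, against 30%, 29.6% and 25.1% of all genes.

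As a description across all 18 libraries, the genes whose log2 levels ran most like Pparg were Cep170b (Pearson r = 0.974), Ncoa4 (0.970) and Vps13a (0.970). Those most like Cebpa were Atoh8 (0.959), Rab31 (0.914) and Cygb (0.908), and those most like Cebpb were Asnsd1 (0.952), Nelfe (0.938) and Wtip (0.922). The points share experiment, treatment and the length trend. Ranking by Spearman correlation left 0, 1 and 0 of these 3 genes in the respective lists.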

How the data were processed

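RNA from 18 samples of MSCs, 3 per group, was sequenced as unstranded libraries. The deposited table holds estimated counts per gene, which the authors made with Salmon 1.2.1 against GENCODE transcripts on GRCm38 (mm10). How transcripts were summed to genes is not given in the sources used here. Gene symbols and coordinates came from a GRCm38 annotation, which matched 54094 of 54347 identifiers. Counts were rounded and fitted with DESeq2 1.42.0 in R 4.3.3 (Wald test, Benjamini-Hochberg adjustment over all genes) on the 9 libraries of each experiment, and on all 18 for the difference between CK666 effects. Called genes changed more than 2-fold at an adjusted p under 0.01. Levels are counts divided by DESeq2 size factors. Alternatives used edgeR 4.0.16, other scalings, filters and library sets, and removal of a trend in transcript length and G+C content. That trend was fitted in each library against the mean of all 18, so treatment effects that follow length or G+C content are removed with it. The fits were also run on simulated counts with known changes. Those counts held no trend in length or G+C content, so they cannot show how the fits behave under it.

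The 10 regulators and all gene lists were chosen with earlier results of these data known. All 10 are named in every comparison between groups, and for the difference between CK666 effects only Pparg, Cebpa, Rxra and Cebpg are named. From the other lists, up to 3 called genes per direction with a mean of at least 50 counts are named, by size of change. Cell type markers are also named by their level. The likeness ranking used genes with a mean of at least 100 counts and a pseudocount of 1. The same replicate number in CK666 and control went with correlated deviations (r = 0.174, 0.122 and 0.118), and in no other comparison were all 3 above 0.1. Using the numbers as a block left the CK666 calls among the regulators as they were.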

Additional observations from a re-analysis of the deposited data

Results flagged for a closer look

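The CK666 effect differed with and without Arp4 knockdown for 10 listed genes, by the test of the difference itself over all 18 libraries. In each case knockdown and transfection cannot be told apart. The effect was more positive in siArp4 cells by 1.52 on the log2 scale for Nfic, a paralogue of Nfia, by 1.36 for Acsl1, which encodes a fatty acyl-CoA synthetase, by 1.17 for Lpl and by 1.22 for Atf5. It was more negative by -2.70 for Ddit3 and by -1.08 for Klf4. Among the stromal markers it was more positive by 1.36 for Cxcl12 and 1.01 for Pdgfrb, and more negative by -3.05 for Ly6a and -1.06 for Vim. Adjusted p-values from DESeq2 ran from 5.66e-26 for Ly6a to 0.00203 for Acsl1. None of the 10 regulators themselves was among these genes.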

How the results depend on the processing

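With no minimum fold change, the regulators called were 4, 4, 6, 5, 4 and 3 for CK666 against control, CytoD against control, CK666 against CytoD, siArp4 against siControl, siArp4+CK666 against siControl and siArp4+CK666 against siArp4, and a test against a fold of 2 gave 0 in the first 5. With the length and G+C trend removed, siArp4 against siControl called 1. For siArp4+CK666 against siControl, edgeR and a fit of only those groups each called 1; against siArp4, fits of all 18 libraries and of only those groups called 1 and 2. Leaving out 1 library at a time gave 1 to 2, 0 to 2, 2 to 4, 2 to 4, 1 to 3 and 0 to 2 in the same order. Directions turned only for differences that had not passed. The trend removal gave -0.073 for Cebpa with CK666, 0.095 for Cebpg with CytoD, -0.0024 for Pparg and -0.022 for Ebf2 in CK666 against CytoD, 0.41 for Cebpb in siArp4, and 0.14, -0.037 and -0.057 for Cebpa, Cebpg and Ebf1 in siArp4+CK666 against siControl. Using replicate numbers as a block gave -0.020 for Ebf2 in CK666 against CytoD and 0.088 for Cebpb in siArp4, and left the counts of called regulators at 2, 1, 3, 3, 2 and 0. Fitting all 18 libraries gave -0.0017 for Ebf2 in CK666 against CytoD.
Leaving out 1 library at a time turned the sign of 13 such differences, whose ranges were -0.046 to 0.12 for Cebpa and -0.49 to 0.012 for Nfia with CK666; -0.20 to 0.057 for Cebpb, -0.038 to 0.073 for Cebpd and -0.17 to 0.0074 for Cebpg with CytoD; -0.27 to 0.25 for Ebf2 in CK666 against CytoD; -0.29 to 0.36 for Cebpd, -0.29 to 0.28 for Ebf1 and -0.77 to 0.72 for Cebpb in siArp4; -0.014 to 0.19 for Pparg, -0.45 to 0.013 for Cebpa and -0.054 to 0.53 for Ebf1 in siArp4+CK666 against siControl; and -0.038 to 0.47 for Ebf2 in siArp4+CK666 against siArp4.
The cause of these changes was not tested. Cebpd and Ebf2 were read at 84.6 to 787 counts per library.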
